A study of Mus musculus with 8 samples.

Results

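Of 20741 genes counted in the mouse suprachiasmatic nucleus (SCN), the hypothalamic pacemaker of daily rhythms, 10 were taken here by name as known responders to glucocorticoid hormone: Fkbp5, Tsc22d3, Sgk1, Zbtb16, Pdk4, Cdkn1a, Klf9, Errfi1, Plin4 and Nfkbia. All 10 were found in the sense-strand gene table, and 71 of the 176269 introns in the intron table carried one of their symbols. The 8 libraries came from C57/BL6 mice that had been kept for 3 weeks in a cycle of 12 h light and 12 h darkness and were then moved to constant darkness. One library of polyadenylated RNA was made every 6 h over 2 days, each from equal amounts of RNA of 3 animals. No hormone treatment, adrenalectomy or mutant is named in the labels, so all libraries share the same untreated background and are labelled as differing in circadian time (CT) alone. The first library is titled CT22, although the labels put the start of collection at CT18. Libraries 24 h apart were taken as replicates 1 and 2 of the same circadian time, which gave 2 libraries each at CT4, CT10, CT16 and CT22. The libraries of CT10 and CT16 stand for subjective dusk (n = 4) and those of CT22 and CT4 for subjective dawn (n = 4).

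Glucocorticoids, mainly corticosterone in mice, are secreted by the adrenal gland in a daily rhythm that in nocturnal rodents is highest around dusk. The hormone binds the glucocorticoid receptor (Nr3c1), which moves to the nucleus and acts on DNA at response elements made of AGAACA hexamers in facing pairs. Several of the 10 genes are induced by the hormone in many tissues, oligodendrocytes of white matter among them. The SCN itself lies above the optic chiasm, a tract rich in the oligodendrocytes that make Mbp, myelin basic protein, and its dissection can take more or less of that tract along. Mbp reads were therefore set beside every gene.

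Deposited totals differed little between libraries, with 11123610 to 11131890 reads on sense genes each, and the 10 genes had between 63 and 1542 reads per library. These totals had been made nearly equal, so they do not give the depth of sequencing. Mbp had 5017 and 4267 CPM (edgeR's read counts scaled by effective library size) at CT10 and 2465 and 4957 CPM at CT16. At CT22 it had 3312 and 2935 CPM, and at CT4 1496 and 2283 CPM. Dusk and dawn libraries overlapped in Mbp, and the library of CT4 replicate 1 was the lowest of the 8. The log2 difference of Mbp, dusk minus dawn, was 0.77 ± 0.22 (SE; edgeR quasi-likelihood test, adjusted p = 0.395). In such bulk samples, fewer cells of a type and less RNA per cell cannot be told apart. The 8 listed genes of SCN neurons were all detected, summing to 524 to 653 CPM at dusk and 598 to 1031 CPM at dawn.

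Every one of the 10 genes had its lowest mean level at CT4, as did 29.5% of the 15217 genes tested. The 10 were chosen with earlier results of these data known, so shares of all genes, here and below, do not test the set. In 8 of the 10, all but Nfkbia and Klf9, both CT4 libraries were the 2 lowest of the 8, against 6.25% of all genes. All 10 had both CT10 libraries above both CT4 libraries, which 24.1% of all genes did. The ratio of the CT10 mean to the CT4 mean ran from 1.26 for Cdkn1a to 2.73 for Sgk1, with a median of 1.80, beside a median of 1.01 over all genes. Highest means fell at CT10 in 6 genes (29.8% of all genes), at CT16 in 3, namely Pdk4, Plin4 and Errfi1 (22.8% of all), and at CT22 in Cdkn1a (22.1% of all). Mbp likewise had its lowest mean, 1889 CPM, at CT4 and its highest, 4642 CPM, at CT10, and its part in the pattern was not tested by these counts.

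**Figure D1:**
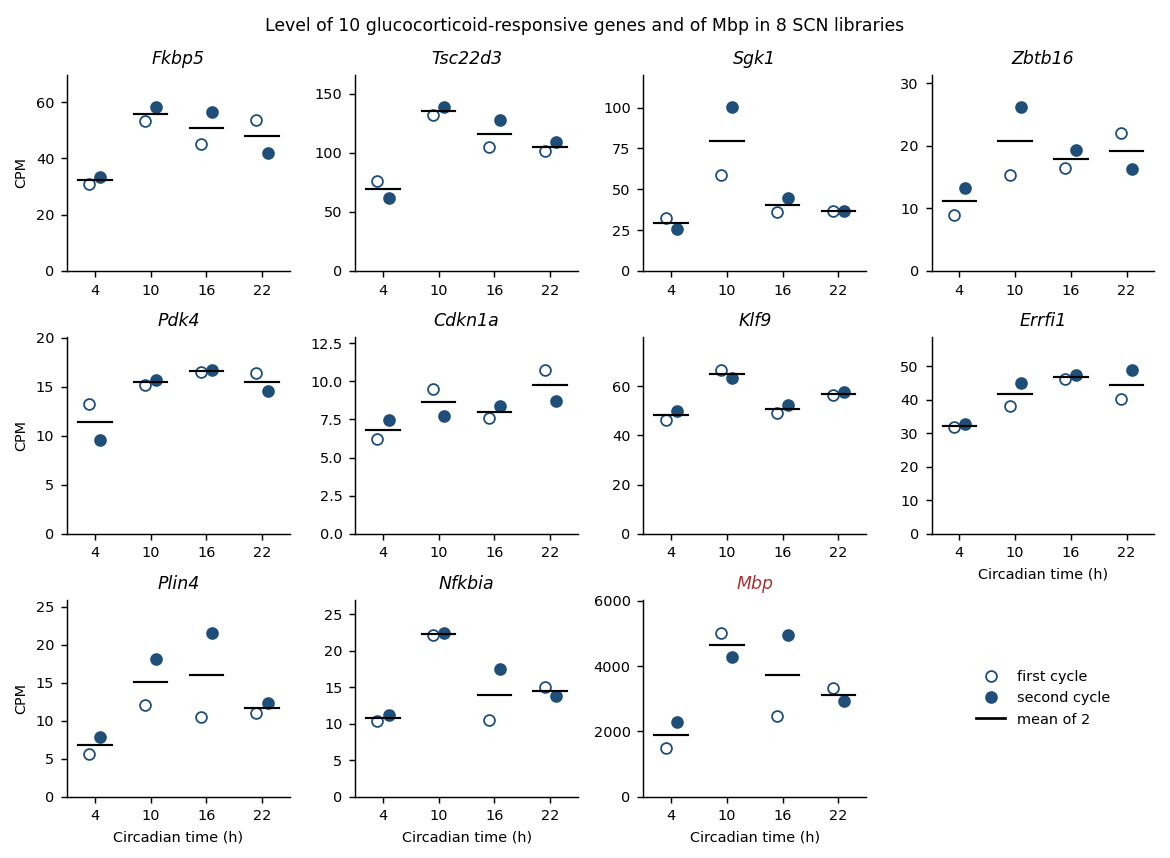
CPM of the 10 genes and of Mbp (each on its own linear axis from 0) at CT4, CT10, CT16 and CT22; open circles are the first cycle, filled circles the second, and bars the mean of 2 libraries. CT4 has the lowest mean in all 11 panels, and Mbp ranges from 1496 to 5017 CPM.

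Between dusk and dawn, all 10 genes had a log2 difference above 0, where 51.4% of all genes did. Their median was 0.41, against 0.01 over all genes. No member passed an adjusted p of 0.05 in edgeR, where 0.0197% of all genes passed in either direction and 0 of 15217 passed as higher at dusk. At an unadjusted p under 0.05 in edgeR, 5 members were higher at dusk, Fkbp5, Tsc22d3, Sgk1, Plin4 and Nfkbia, against 4.2% of all genes. DESeq2 called 1, Tsc22d3, with an adjusted p of 0.0496, among 10 genes called higher at dusk. With no filter on low counts edgeR called 4, Fkbp5, Plin4, Sgk1 and Tsc22d3, among 155 genes called higher at dusk. Without CT16 replicate 1 edgeR called Plin4 and Tsc22d3 (adjusted p = 0.0402), among 42 genes called higher at dusk. In none of the 10 did the 4 dusk libraries all lie above the 4 dawn libraries in CPM, which happened in 1.66% of all genes.

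The first group holds genes that restrain hormone action or inflammation. Fkbp5 (mm9 chr17:28535835-28654482) encodes a co-chaperone that lowers the receptor's affinity for hormone. It had 53.5 and 58.2 CPM at CT10 and 45.3 and 56.5 CPM at CT16, against 53.6 and 42.1 CPM at CT22 and 30.8 and 33.6 CPM at CT4. The CT4 pair stood apart at the low end, while the first CT22 library was as high as the lower of the CT10 pair, so dusk and dawn overlapped. The log2 difference of Fkbp5, dusk minus dawn, was 0.44 ± 0.14 (SE; edgeR adjusted p = 0.499).

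Tsc22d3 (mm9 chrX:137073814-137135220) encodes the glucocorticoid-induced leucine zipper protein GILZ, which binds and restrains inflammatory transcription factors. Its levels were 132 and 138 CPM at CT10 and 104 and 127 CPM at CT16, against 101 and 109 CPM at CT22 and 76.4 and 62.1 CPM at CT4. Only the first CT16 library and the second CT22 library crossed. Tsc22d3 averaged 126 ± 14.8 CPM at dusk and 87.2 ± 21.7 CPM at dawn (SD, n = 4 each). The log2 difference, dusk minus dawn, was 0.55 ± 0.14, with the lowest unadjusted p of the 10 (0.0013) and an adjusted p of 0.363 in edgeR. Nfkbia (mm9 chr12:56590343-56593668) encodes the inhibitor that holds NF-kappaB in the cytoplasm. It had 22.2 and 22.5 CPM at CT10 and 10.5 and 17.4 CPM at CT16, against 15.0 and 13.8 CPM at CT22 and 10.4 and 11.2 CPM at CT4. The CT10 pair stood above all others, and the first CT16 library lay between the CT4 libraries. The log2 difference was 0.50 ± 0.22 (edgeR adjusted p = 0.598).

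Kinase signalling is represented by Sgk1 and Errfi1. Sgk1 (mm9 chr10:21601938-21719833), the serum- and glucocorticoid-regulated kinase, acts on ion channels and transporters. It had 58.9 and 100.1 CPM at CT10 and 35.8 and 44.6 CPM at CT16, against 36.7 and 36.9 CPM at CT22 and 32.7 and 25.6 CPM at CT4. The CT10 pair stood above all others, with the second CT10 library far above the first, and CT16 overlapped CT22. The log2 difference was 0.79 ± 0.23 (edgeR adjusted p = 0.395), and the fitted 24-h peak fell at 11.4 h. Errfi1 (mm9 chr4:150228010-150243258) encodes an inhibitor of the epidermal growth factor receptor. Its levels were 38.3 and 45.1 CPM at CT10 and 46.4 and 47.4 CPM at CT16, against 40.1 and 48.9 CPM at CT22 and 31.9 and 32.7 CPM at CT4. The CT4 pair was lowest, the CT22 pair spanned most of the range of CT10 and CT16, and the log2 difference was 0.22 ± 0.11 (edgeR adjusted p = 0.664).

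Plin4 and Pdk4 act in fuel use. Plin4 (mm9 chr17:56239840-56249236), a coat protein of lipid droplets, had 12.1 and 18.1 CPM at CT10 and 10.5 and 21.6 CPM at CT16, against 11.01 and 12.4 CPM at CT22 and 5.65 and 7.83 CPM at CT4. Replicates of CT16 differed more than the means of any neighbouring times. Its log2 difference, 0.80 ± 0.24, was the largest of the 10 (edgeR adjusted p = 0.420). Pdk4 (mm9 chr6:5433127-5446336) encodes a kinase that shuts down pyruvate dehydrogenase and so spares glucose. It had 15.2 and 15.7 CPM at CT10 and 16.5 and 16.7 CPM at CT16, against 16.5 and 14.6 CPM at CT22 and 13.3 and 9.54 CPM at CT4. The CT4 pair was lowest and the other times overlapped or nearly touched, and the log2 difference was 0.26 ± 0.16 (edgeR adjusted p = 0.714).

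The last group acts on transcription and the cell cycle. Zbtb16 (mm9 chr9:48462110-48644065) encodes the zinc-finger repressor PLZF. It had 15.3 and 26.1 CPM at CT10 and 16.5 and 19.3 CPM at CT16, against 22.1 and 16.3 CPM at CT22 and 8.88 and 13.3 CPM at CT4, so that CT10, CT16 and CT22 overlapped. Klf9 (mm9 chr19:23215613-23241623), a Krüppel-like factor, had 66.6 and 63.4 CPM at CT10 and 49.3 and 52.5 CPM at CT16, against 56.4 and 57.7 CPM at CT22 and 46.5 and 50.03 CPM at CT4. Its replicates lay close together, and CT16 overlapped CT4. Cdkn1a (mm9 chr17:29227912-29237804) encodes the cyclin-dependent kinase inhibitor p21 and had 9.51 and 7.72 CPM at CT10 and 7.57 and 8.41 CPM at CT16, against 10.7 and 8.72 CPM at CT22 and 6.19 and 7.47 CPM at CT4. It averaged 8.30 ± 0.88 CPM at dusk and 8.28 ± 1.94 CPM at dawn (SD, n = 4 each). The log2 differences were 0.39 ± 0.23 for Zbtb16, 0.13 ± 0.12 for Klf9 and 0.02 ± 0.20 for Cdkn1a, with edgeR adjusted p-values of 0.709, 0.804 and 0.987.

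A 24-h rhythm of free phase was called by edgeR in 0 of the 10 genes, beside 0.112% of all genes. With no filter on low counts the same test called 4 (Fkbp5, Plin4, Sgk1 and Tsc22d3) and 362 genes in all. At an unadjusted p under 0.05 it was seen in 5 (Fkbp5, Tsc22d3, Sgk1, Errfi1 and Plin4), against 8.6% of all genes, DESeq2 called 0, and the lowest adjusted p among the 10 in edgeR was 0.329, for Sgk1. Fitted peaks ran from 11.4 h for Sgk1 and Klf9 to 18.6 h for Cdkn1a. The fitted ratio of peak to trough was highest for Plin4, at 2.42, and Sgk1, at 2.34, and lowest for Klf9, at 1.15. Between subjective day (CT4 and CT10) and subjective night (CT16 and CT22), 0 of the 10 were called, beside 0.105% of all genes in edgeR. DESeq2 called 0 as well, and only Errfi1 had an unadjusted p under 0.05 in edgeR, as did 7.72% of all genes, with a log2 difference, day minus night, of -0.31 ± 0.11 (adjusted p = 0.460). In the authors' deposited table of a JTK rhythm test, 1 of the 10 had an adjusted p under 0.05, Pdk4 at 0.0220 with a peak at 19 h, where 2.68% of the genes in that table did. In the authors' deposited table the q-value over all rows, and not the adjusted p, is the counterpart of the edgeR adjusted p. That q-value was 0.978 for Pdk4, and the lowest of any gene was 0.823.

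Set beside Mbp, the genes differed in how steeply they followed it. The slope of a gene on log2 Mbp, which is its log2 change for each doubling of Mbp over the 8 libraries, was above 0 in 10 of 10 members and in 51.6% of all genes. The median slope was 0.53 for the 10 and 0.01 for all genes. By edgeR, 4 of the 10 rose with Mbp at an adjusted p under 0.05, where 1.93% of all genes were called in either direction and 1.8% rose. They were Fkbp5 with a slope of 0.52 ± 0.10 (SE; adjusted p = 0.0072), Plin4 with 0.93 ± 0.18 (adjusted p = 0.0080), Tsc22d3 with 0.53 ± 0.11 (adjusted p = 0.0125) and Nfkbia with 0.68 ± 0.14 (adjusted p = 0.0142). Sgk1 had a slope of 0.73 ± 0.20 and Zbtb16 one of 0.59 ± 0.18, and their adjusted p-values in edgeR were 0.0791 and 0.119. Slopes of Klf9, Cdkn1a, Errfi1 and Pdk4 lay between 0.21 and 0.27, none of them called. Without CT4 replicate 1, the library lowest in Mbp, none of the 10 was called (lowest edgeR adjusted p = 0.0628, for Nfkbia) and 62 genes were called in all, against 294 with it. Nfkbia also lost its call without CT10 replicate 1 (edgeR adjusted p = 0.0812), where Zbtb16 gained one, and Plin4 without CT16 replicate 2 (edgeR adjusted p = 0.0641), where Sgk1 gained one.

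**Figure D2:**
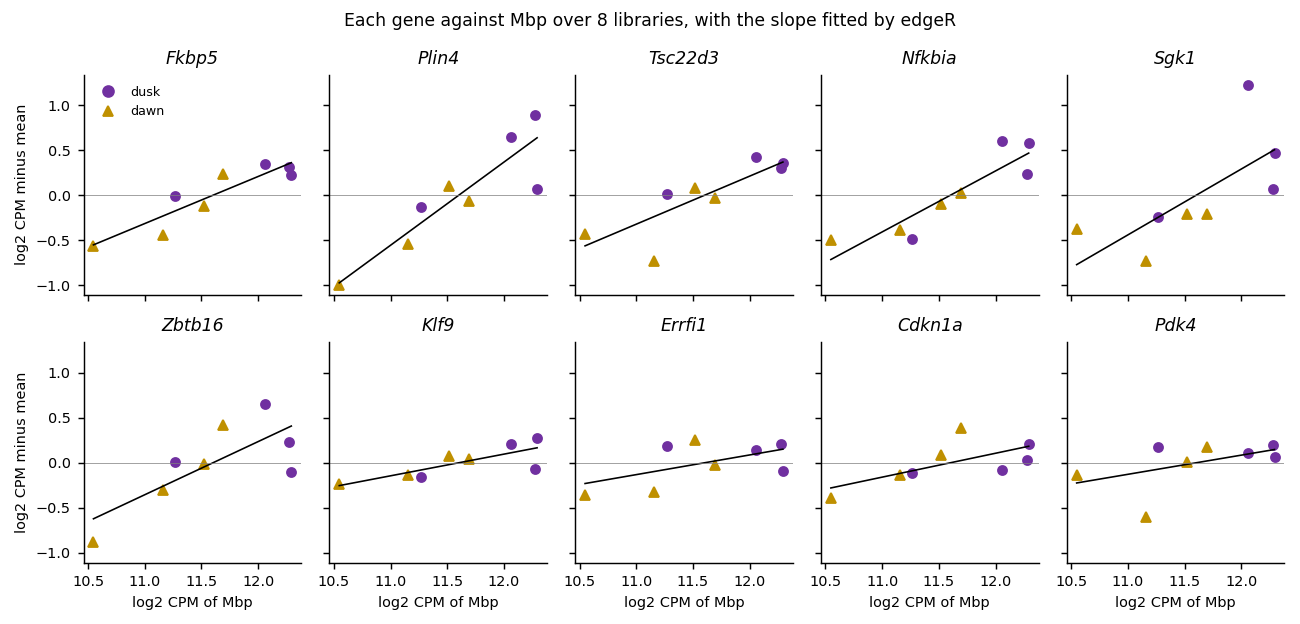
Log2 CPM of each gene minus its own mean over 8 libraries (vertical axis) against log2 CPM of Mbp (horizontal axis), with dusk libraries as circles, dawn libraries as triangles and the slope fitted by edgeR as a line. Slopes run from 0.93 for Plin4 to 0.21 for Pdk4, and the library at the left end of each panel is CT4 replicate 1.

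The 2 libraries of CT16 share a circadian time but come from different cycles, and Mbp was 2.01 times as high in replicate 2 as in replicate 1. Each ratio here sets 1 library against 1 other and carries no test. All 10 genes were higher in CT16 replicate 2, where 52% of all genes were, and their median ratio was 1.19, beside 1.01 over all genes. Plin4 had a ratio of 2.05, close to that of Mbp, and Nfkbia had a ratio of 1.66. Fkbp5, Sgk1 and Tsc22d3 had ratios of 1.25, 1.25 and 1.22, while Errfi1 and Pdk4 had 1.02 and 1.01. In the CT4 pair, with a Mbp ratio of 1.53, 7 of the 10 were higher in the library with more Mbp, against 52.2% of all genes, and Tsc22d3, Sgk1 and Pdk4 were lower. The pairs of CT10 and CT22 differed in Mbp by ratios of 1.18 and 1.13 only, and 2 and 5 of the 10 were higher where Mbp was higher, against 50.2% and 45.8% of all genes. Sgk1 went against Mbp at CT10, with 100.1 CPM in the library with 4267 CPM of Mbp and 58.9 CPM in that with 5017 CPM.

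With log2 Mbp as a further term in the model, the median difference between dusk and dawn over the 10 genes shrank. That of Cdkn1a grew in size, from 0.02 to -0.28. The median log2 difference over the 10 was 0.13, against -0.01 over all genes, 6 of 10 stayed above 0, where 48.2% of all genes were, and edgeR called 0 of the 10, beside 0.0197% of all genes. No member had an unadjusted p under 0.05 in that model. Sgk1 kept the largest difference, 0.39 ± 0.26 on the log2 scale, followed by Tsc22d3 with 0.26 ± 0.16, Plin4 with 0.22 ± 0.25 and Pdk4 with 0.22 ± 0.21. Fkbp5, whose slope on Mbp had the lowest p, had 0.11 ± 0.14. The sign turned for Nfkbia (-0.09 ± 0.20), Klf9 (-0.10 ± 0.13), Zbtb16 (-0.02 ± 0.25) and Cdkn1a (-0.28 ± 0.24). Mbp itself was higher on average at dusk in these 8 libraries, so a dusk term and Mbp share part of their variation.

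**Figure D3:**
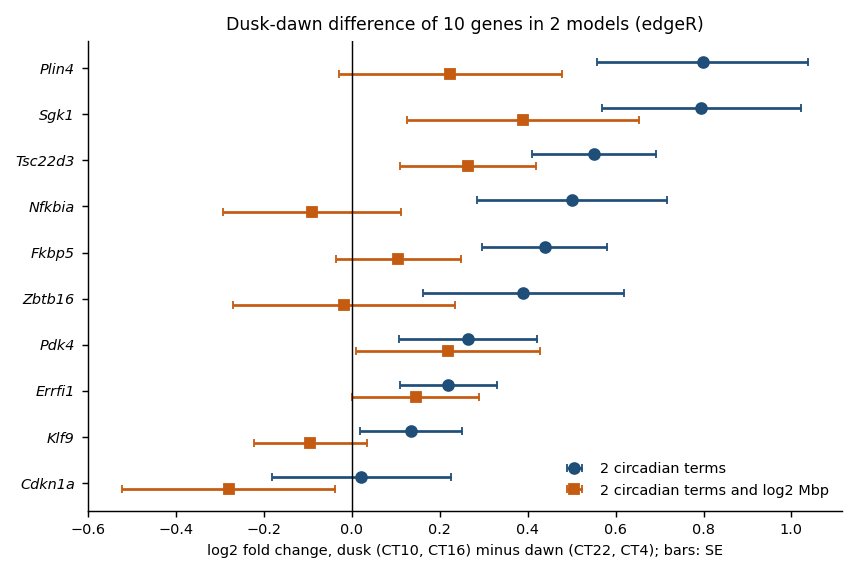
Log2 fold change of each gene, dusk minus dawn, with its SE, in the model with 2 circadian terms (circles) and in the model that also holds log2 Mbp (squares). Plin4 fell to 0.22 with the Mbp term, against 0.80 without it, and Nfkbia to -0.09, against 0.50.

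Other cell types moved along with Mbp to different extents. Of 11 further oligodendrocyte genes listed, 10 rose with Mbp at an adjusted p under 0.05 in edgeR, and the whole list of 12, none of which was at 0 in all libraries, summed to 8211 to 15983 CPM at dusk and 5112 to 10548 CPM at dawn. Among 7 genes of the meninges, the connective-tissue sheets around the brain, 3 rose with Mbp, and that list summed to 293 to 586 CPM at dusk and 105 to 499 CPM at dawn, lowest in CT4 replicate 1. One gene each rose with Mbp among 6 of oligodendrocyte precursors (Sox10), 8 of astrocytes (Gfap) and 8 of microglia (C1qa), while none did among 8 of endothelium, 6 of mural cells, 6 of ependyma and choroid plexus and 5 of blood, beside 1.8% of all genes. Of 8 neuronal genes 1, Gad2, fell with Mbp (edgeR adjusted p = 0.0245), and the list's median slope was -0.16. The 8 genes of SCN neurons had a median slope of -0.14, with 2 above 0 and none called. Single genes are named here because they were the ones called. Blood genes were highest in CT4 replicate 1, at 376 CPM in sum, against 80.1 to 254 CPM in the other libraries. The part of these cell types in the levels of the 10 genes was not tested.

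The 10 genes were also compared in pairs. Over the 8 libraries all 45 pairs had a positive Pearson correlation of log2 CPM, from 0.17 for Sgk1 with Cdkn1a to 0.90 for Klf9 with Nfkbia, with a median of 0.68. Fkbp5 and Tsc22d3 correlated at 0.89. These values describe the same 8 libraries, which differ in Mbp, and carry no test. Pairs of other genes were not correlated, so how common such values are is not known. Among 11891 other genes with a mean of at least 5 CPM, the 5 most like the mean of the 10 were Syvn1, Pnpla2, Cdr2l, Cdc42ep1 and Kti12, with r between 0.962 and 0.969 over 8 libraries. Singly, Tsc22d3 was most like Bcl2l1 (r = 0.992), Fkbp5 most like Pnpla2 (r = 0.982), Nfkbia most like Wscd1 (r = 0.982) and Plin4 most like Cdc42bpg (r = 0.981). For Pdk4 it was Tnip1 (r = 0.984), for Klf9 Ppp1r16b (r = 0.976), for Zbtb16 Ethe1 (r = 0.976), for Errfi1 Nck1 (r = 0.971) and for Cdkn1a Lsm4 (r = 0.963). All these were picked as the highest of 11891 correlations over 8 libraries, which by itself favours a high r, and none was tested.

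Sgk1 and Tsc22d3 both start at several sites, and the reads over their first splice junctions were uneven between the forms. Junctions were matched to GENCODE M21 transcripts by intron length alone, since the deposited coordinates are on mm9 and the annotation is on GRCm38. Both genes were chosen after the values were seen, so the counts carry no test. The Sgk1 form that starts at position 21994666 of GRCm38 chromosome 10 and has a first intron of 140 bases had 28 and 81 junction reads at CT10 and 13 and 29 at CT16, against 19 and 8 at CT22 and 1 and 6 at CT4. That made 151 reads at dusk and 34 at dawn. The form that starts furthest upstream, at 21882184 with a first intron of 45634 bases, had 5 and 1 reads at CT10 and 4 and 6 at CT16, against 6 and 8 at CT22 and 20 and 8 at CT4. Its 16 dusk and 42 dawn reads ran the other way, with 20 of them in CT4 replicate 1. Over all 18 Sgk1 junctions there were 1030 reads at dusk and 604 at dawn. Another form, starting at 21993890 with a first intron of 784 bases, had 2 reads in all.

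Tsc22d3 had 36 and 69 reads at CT10 and 44 and 39 at CT16 over a first intron of 689 bases, against 19 and 21 at CT22 and 7 and 6 at CT4. That made 188 reads at dusk and 53 at dawn, and the share of all junctions this uneven was not computed. Over the first intron of 354 bases, which shares its acceptor, dusk had 49 reads and dawn 44, and over that of 6039 bases dusk had 11 and dawn 19. The junctions of 689 and 6039 bases also carry the symbol Tilz3b in the deposited table, so their reads cannot be given to Tsc22d3 alone, while that of 354 bases carries Tsc22d3 only. Junction tables held 3196136 to 3437120 reads per library, and the reads given are not scaled.

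**Figure D4:**
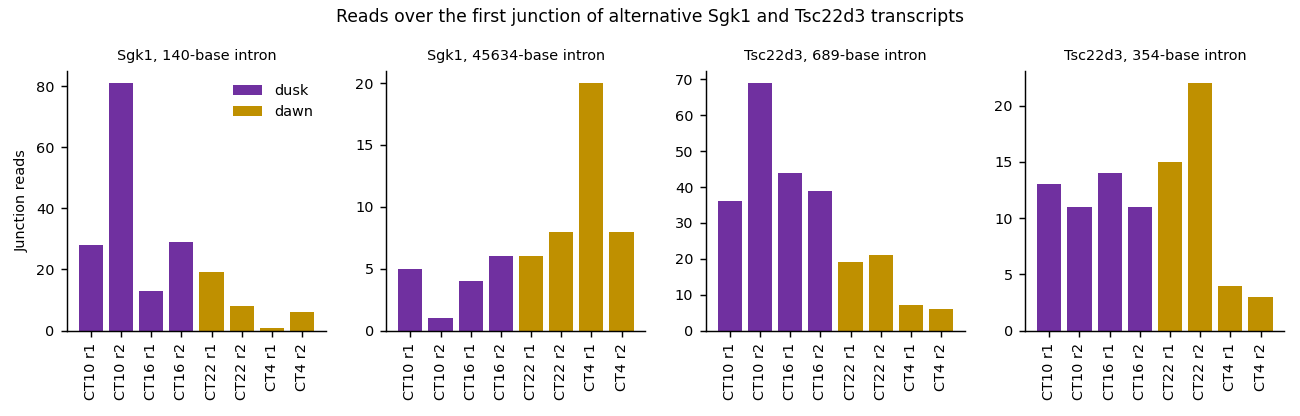
Reads (linear axis from 0, not scaled) over the first junctions of 2 Sgk1 and 2 Tsc22d3 transcripts, named by intron length, with the 4 dusk libraries left of the 4 dawn libraries; r1 and r2 are replicates. The 140-base Sgk1 junction has 151 dusk and 34 dawn reads and the 45634-base one 16 and 42, while the Tsc22d3 junctions have 188 and 53 (689 bases) and 49 and 44 (354 bases).

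The windows at 3 Sgk1 starts are shown, those of the 140-base and 45634-base forms because their dusk and dawn reads ran in opposite directions, and that of the 784-base form, with 2 reads in all, because it holds the palindrome. Each runs from 250 bases before to 50 after the start, from the RefSeq promoter table on GRCm38.p6, plus strand. Capitals mark the hexamer AGAACA or its reverse complement, the palindrome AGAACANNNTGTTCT, and the E-box CACGTG that clock proteins bind, searched on both strands.

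Sgk1 chr10:21994416-21994715 (start of the 140-base form): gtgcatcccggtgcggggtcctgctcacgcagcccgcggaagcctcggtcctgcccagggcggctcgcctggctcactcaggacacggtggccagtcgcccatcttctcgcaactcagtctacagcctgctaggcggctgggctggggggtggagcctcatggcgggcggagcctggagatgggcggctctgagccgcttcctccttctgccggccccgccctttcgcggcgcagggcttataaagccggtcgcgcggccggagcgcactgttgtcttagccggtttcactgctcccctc

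Sgk1 chr10:21993640-21993939 (start of the 784-base form): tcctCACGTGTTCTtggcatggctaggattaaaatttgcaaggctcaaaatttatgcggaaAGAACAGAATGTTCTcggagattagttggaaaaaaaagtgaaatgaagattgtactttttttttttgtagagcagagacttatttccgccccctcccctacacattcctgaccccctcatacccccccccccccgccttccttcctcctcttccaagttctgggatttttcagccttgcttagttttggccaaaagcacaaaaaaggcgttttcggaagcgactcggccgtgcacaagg

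Sgk1 chr10:21881934-21882233 (start of the 45634-base form): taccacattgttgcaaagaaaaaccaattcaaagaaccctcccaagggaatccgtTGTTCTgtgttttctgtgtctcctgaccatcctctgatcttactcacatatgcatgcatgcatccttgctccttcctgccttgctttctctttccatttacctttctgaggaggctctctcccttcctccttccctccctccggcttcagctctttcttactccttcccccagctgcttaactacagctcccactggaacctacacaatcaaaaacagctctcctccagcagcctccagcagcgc

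The palindrome stood once among the 18 windows of 9 members found in the table, in the Sgk1 window at chr10:21993640-21993939, where it reads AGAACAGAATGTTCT from 21993701 to 21993715. Its end lies 951 bases before the start of the 140-base form. Of 32851 promoter windows in the RefSeq table, 3 held it, 0.00913%. The hexamer AGAACA was in 4 of the 18 windows, 3 of Sgk1 and 1 of Tsc22d3, and in 19.0% of all windows, and the E-box was in 2, of Sgk1 and Fkbp5, and in 7.15% of all. In the Sgk1 window the E-box overlaps a hexamer. Each match is a description of letters, and a window without one says nothing about the receptor.

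Intron reads, a measure of unspliced RNA in part, were few for most of these genes. After summing introns that did not overlap within a gene, 8 of the 10 were tested, and Pdk4 (21 reads at dusk, 10 at dawn) and Cdkn1a (5 at dusk, 0 at dawn) were not. In edgeR 0 of the 8 were called between dusk and dawn, beside 0.238% of 12189 genes, and 0 for a 24-h rhythm, beside 0.279%. DESeq2 called 0 in both, but gave no adjusted p to at least 1 member, which then counted as not called. At an unadjusted p under 0.05 edgeR had Sgk1 between dusk and dawn (9.04% of all genes), and Sgk1 and Nfkbia for the rhythm (9.42% of all). Sgk1 had 62 and 137 intron reads at CT10 and 35 and 36 at CT16, against 44 and 17 at CT22 and 13 and 36 at CT4. Its log2 difference, dusk minus dawn, was 1.15 ± 0.37 (edgeR adjusted p = 0.258). With no filter on low counts that difference had an edgeR adjusted p of 0.0195, where 92 genes were called in either direction. The Sgk1 rhythm was called without CT22 replicate 1 (edgeR adjusted p = 0.0292), where 16 genes were called in all. The second CT10 library held the most Sgk1 intron reads, as in the gene counts. Of the 11 Sgk1 introns summed, 7 share bases with an annotated exon of another transcript. Over introns that share no base with an annotated exon, edgeR called no member. The lowest edgeR adjusted p of any member there was 0.513 between dusk and dawn and 0.534 for the rhythm. Fkbp5, with 178 intron reads at dusk and 197 at dawn, had a log2 difference of -0.12 ± 0.27, and Zbtb16, with 94 and 133, one of -0.51 ± 0.32. Tsc22d3, Errfi1 and Plin4 had 0.74 ± 0.61, 0.55 ± 0.79 and 0.18 ± 0.81. Klf9 and Nfkbia had -1.07 ± 0.80 and -0.66 ± 0.57, and each of these genes had 48 to 90 reads over all libraries. Of the 84 Tsc22d3 reads, 82 lay in an intron that falls within a longer annotated exon, so they do not measure unspliced RNA alone. The median of the 8 was 0.03, against -0.07 over all genes, of which 40.9% were above 0. The direction shared by all 10 genes in the gene counts was shared by 4 of 8 in intron reads, Tsc22d3 among them.

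Of 15 further glucocorticoid targets, 10 had a log2 difference above 0 between dusk and dawn, beside 51.4% of all genes, and 0 were called by edgeR in either direction. Their median was 0.16, against 0.01 over all genes. Those with the lowest p were Lcn2 (a secreted iron-binding lipocalin, at most 2.36 CPM) with -1.47 ± 0.76, Dusp1 (a phosphatase of MAP kinases) with -0.33 ± 0.17, Fam107a with 0.16 ± 0.09 and Arrdc2 with 0.33 ± 0.21, none with an adjusted p under 0.669 in edgeR. Sult1a1 rose with Mbp, with a slope of 0.72 (edgeR adjusted p = 0.0182), and was chosen after its value was seen, as was Per1. Per1, a clock gene that also has a glucocorticoid response, was the only one of the 15 with a called 24-h rhythm (edgeR adjusted p = 0.0032). It peaked at 6.79 h and had 74.8 and 97.7 CPM at CT10 against 77.2 and 86.7 CPM at CT4, so it lacked the gap between CT10 and CT4 that all 10 genes had.

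The hormone's receptors and their partners had small differences. Nr3c1, the glucocorticoid receptor, had 118 and 97.9 CPM at CT10 and 121 and 135 CPM at CT16, against 116 and 112 CPM at CT22 and 101 and 107 CPM at CT4. Its log2 difference, dusk minus dawn, was 0.11 ± 0.09 (edgeR adjusted p = 0.775), and that of Nr3c2, the mineralocorticoid receptor, was 0.11 ± 0.13 (adjusted p = 0.856). Of 10 receptor, chaperone, coactivator and steroid-handling genes in the table, 5 were above 0, 0 were called and the median was -0.02. The chaperone Hsp90aa1 had -0.20 ± 0.10 and the co-chaperone Fkbp4 had 0.15 ± 0.09, while the receptor coactivators Ncoa2 and Ncoa1 had -0.18 ± 0.09 and -0.12 ± 0.09, and none of these was called.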

How the data were processed

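Polyadenylated RNA of the SCN was sequenced in 8 pooled libraries, 1 for each time, from a strand-preserving kit, per the labels' protocols. Reads were aligned with STAR 2.3.0e and the build is mm9, per the submitters' processing notes. Whole-number counts of reads per sense gene, antisense gene, intron, exon and junction were deposited. Neither the counting tool nor the step that made totals nearly equal within each table is given in the sources used here, and this equalising removed differences in intron or antisense share between libraries. Each gene also has a p-value (adjusted), a q-value and a peak time from the authors' JTK rhythm test, per the file headers. The header of the CT10 replicate 1 column carries an added letter E whose meaning is not given. No sample column was left unmapped (0).

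Counts were tested with edgeR 4.0.16 in R 4.3.3 (quasi-likelihood F test, TMM scaling, at least 10 reads in at least 2 libraries, Benjamini-Hochberg adjustment over all features, threshold 0.05), with a day-night and a dusk-dawn term over all 8 libraries. A second model had log2 CPM of Mbp as its only term. DESeq2 1.42.0 was an alternative. Intron counts were summed per symbol over 104576 introns with 1 symbol and no overlap within the gene, scaled by the sense-gene effective library sizes. The scripts were tested on simulated counts. Replicates of a circadian time are pools 24 h apart, numbered here by cycle, so p-values rest on these pools and not on single mice. In the circadian model the spread also holds any misfit of the time means to its day-night and dusk-dawn terms. The 10 genes and all lists were chosen with earlier results of these data known. Named genes were the 10, Mbp, Nr3c1, Nr3c2, up to 4 genes per pathway list with the lowest dusk-dawn p, and the genes most alike by Pearson r, of which that for Sgk1 is not reported here. Alternatives were other scalings, no filter, each library left out, the cycle as a term and Mbp as a term. For introns, all introns of a symbol and introns sharing no base with an exon were also summed, the latter added after the data were seen.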

Additional observations from a re-analysis of the deposited data

Results flagged for a closer look

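Reads on the strand opposite to the 10 genes were outside the comparisons. In 7 of the 10, at least 1 library had more than 3 antisense reads, 3 being the upper limit on a level at which 0 reads are seen. The highest library had 13 antisense reads for Tsc22d3, 12 for Klf9, 12 for Errfi1, 11 for Fkbp5, 8 for Plin4, 5 for Zbtb16 and 4 for Pdk4. Over all libraries antisense reads made up 0.146% (Nfkbia) to 2.04% (Plin4) of the reads of both strands. That limit covers counting error only. No sample of a gene or of Mbp stood apart from the other 3 of its dusk or dawn group by Dixon's criterion.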

How the results depend on the processing

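The count of the 10 genes called higher at dusk was 0. It became 1 with DESeq2 (Tsc22d3, among 10 genes called higher at dusk). With no filter on low counts it became 4 (Fkbp5, Plin4, Sgk1 and Tsc22d3, among 155 genes called higher at dusk). Without each library in turn it was 0 to 2. The 2 were Plin4 and Tsc22d3 without CT16 replicate 1 (edgeR adjusted p = 0.0402), among 42 genes called higher at dusk. With no filter the 24-h rhythm was called in 4 members (362 genes in all), and the cause was not tested. Intron reads of Sgk1 were called with no filter for the rhythm (1 member, 130 genes in all). They were also called between dusk and dawn (1 member, edgeR adjusted p = 0.0195, 92 genes in either direction). Without CT22 replicate 1 the rhythm was called in 1 member (edgeR adjusted p = 0.0292, 16 genes in all), with 0 to 1 over libraries left out. The slope on Mbp was called in 0 to 4 members over libraries left out, and in 5 with DESeq2 (543 genes) and with no filter (333 genes). The dusk-dawn sign turned with the Mbp term for Nfkbia (-0.091), Cdkn1a (-0.281), Klf9 (-0.095) and Zbtb16 (-0.018), and for Cdkn1a over libraries left out, between -0.11 and 0.14. The labels give no replicate numbers, so the cycle does not pair samples by design. With the cycle as a replicate block the counts of members were 0 between dusk and dawn, 0 for the rhythm and 4 for the slope (262 genes). Each scaling moved the median of all genes by less than 0.1. The day-night count stayed at 0 in all 14 alternatives. Both intron counts stayed at 0 over all introns of a symbol and over introns sharing no base with an exon. Precision is limited by 2 pools a time and, for Plin4, by 63 reads in the library where it had fewest.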

Other observations

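Other first junctions, of Errfi1 and Klf9, were uneven between libraries and were picked after their counts were seen. The first intron of Errfi1 with 9803 bases had 0 and 1 reads at CT10 and 0 in both libraries of CT16, against 12 and 6 at CT22 and 0 in both libraries of CT4, while the gene count of Errfi1 at CT22 lay within the range of CT10 and CT16 or just above it. Over all 5 Errfi1 junctions there were 55 reads at dusk and 82 at dawn, the reverse of its gene counts. Klf9 has a first intron of 22423 bases, with 2 and 30 reads at CT10 and 8 and 4 at CT16, against 14 and 6 at CT22 and 2 and 10 at CT4, so that 30 of its 76 reads came from CT10 replicate 2, whose gene count was the lower of the CT10 pair.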
